A study of Homo sapiens with 16 samples.

Results

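The response of BMAL1 knockout (KO) cells to cisplatin was described from 4 of the 16 samples of the series: 2 libraries of KO cells given cisplatin and 2 libraries of KO control cells. Both groups were cells of MDA-MB-231, a long-established human line from a breast cancer without hormone receptors, at passage 10 to 15, and both carried the BMAL1 deletion. Wild-type (WT) cells of the same line, given cisplatin or left as control in 2 libraries each, served for comparison, as did KO cells given doxorubicin or tunicamycin. The labels name no dose, no exposure time and no clone of the KO line, and the extraction text speaks of fibroblasts where the other labels name MDA-MB-231. The series asks how loss of BMAL1 changes the transcriptome under drugs that start apoptosis, with the drug of endoplasmic reticulum stress, tunicamycin, as a comparison.

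Cisplatin is a platinum compound that binds purine bases and joins neighbouring ones within a strand or across strands. Such lesions stall RNA polymerase on the template, so a longer transcription unit offers more places to stall, and they start damage signalling that stops the cell cycle and can end in apoptosis. BMAL1, encoded by ARNTL, pairs with CLOCK to drive the circadian genes.

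The authors deposited 1 FPKM value per group (fragments counted per kilobase of transcript and scaled to the size of the library, from both replicates together), so no spread between libraries and no test of cisplatin against control can be given. The response of a gene is the log2 of FPKM plus 1 in KO cisplatin cells minus the same in KO control cells, which understates the change of low genes. It is centred on its median, 0.15, over the 9367 of 60658 genes that reached 5 FPKM in either KO group. SMG1, at 5.001 FPKM, was the gene just inside that limit and KBTBD7, at 4.999 FPKM, the gene just outside it, with responses of 0.09 and 0.03. A gene is called higher or lower when its centred response reached 2-fold. Values in brackets are centred log2 responses, and levels given with cisplatin and in control are those of KO cells unless WT cells are named. Beside some values stands a rough error, the size that the authors' deposited log2 ratios and statistics of KO against WT cells imply. Its median was 0.26 on the log2 scale over 9293 genes, with a 10th percentile of 0.08 and a 90th of 0.58, and it may be smaller than the true spread between cultures.

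ARNTL, the deleted gene, was at 0.941 FPKM in KO cisplatin cells and 0.889 FPKM in KO control cells, and at 1.26 FPKM in WT cisplatin cells and 5.67 FPKM in WT control cells. The authors' deposited table gives a log2 ratio of KO over WT of -0.42 in cisplatin (q = 0.467) and -2.67 in control (q = 0.000213). Of all genes they tested, 49.6% in cisplatin and 43.8% in control had a q of at most 0.05. Both KO groups thus lay below the limit of 5 FPKM, and WT cisplatin cells lay close to them. VIM, the intermediate filament of mesenchymal cells, was at 2883 FPKM in KO cisplatin cells and 4033 FPKM in KO control cells. All 10 genes of a list of MDA-MB-231 and mesenchymal markers were above 1 FPKM in both KO groups. ESR1 and PGR, the hormone receptors, were listed at 0 in both, and CDH1, the epithelial cadherin, was at 0.0550 FPKM in KO cisplatin cells and 0.349 FPKM in KO control cells. Other members of the list of 20 luminal and epithelial markers were abundant: KRT18 was at 775 FPKM in KO cisplatin cells and 563 FPKM in KO control cells, and KRT8 at 679 FPKM and 471 FPKM in the same groups, both keratins of simple epithelia. The list summed to 1907 FPKM with cisplatin and 1521 FPKM in control, with 6 members under 0.1 FPKM in each KO group. Of 11 fibroblast markers, 8 were under 0.1 FPKM in each KO group, and their summed level was 16.0 FPKM with cisplatin and 12.9 FPKM in control. The 8 leukocyte markers summed to 3.96 FPKM with cisplatin and 5.67 FPKM in control. In bulk RNA, fewer cells of a kind and less RNA per cell cannot be told apart.

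In KO cells cisplatin went with more losses than gains. Of 9367 genes, 298 (3.18%) were called higher and 821 (8.76%) were called lower, and the middle 90% of responses ran from -1.40 to 0.86. The split depends on the scaling: with no centring 476 genes were higher and 677 lower, and with levels rescaled to an equal sum, without the mitochondrial genes, 438 were higher and 744 lower. Among the genes named by rule, CA2, DIO2 and ATF3 had the largest responses and CDH4, CHST11 and PARD3 the smallest. Of the genes called, 204 of 273 higher and 693 of 795 lower ones with a rough error moved by more than 2 such errors. The calls held 24 higher and 15 lower RNAs under 500 bases, 17 called genes were listed at 0 in KO control cells and 13 at 0 in KO cisplatin cells.

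**Figure D1:**
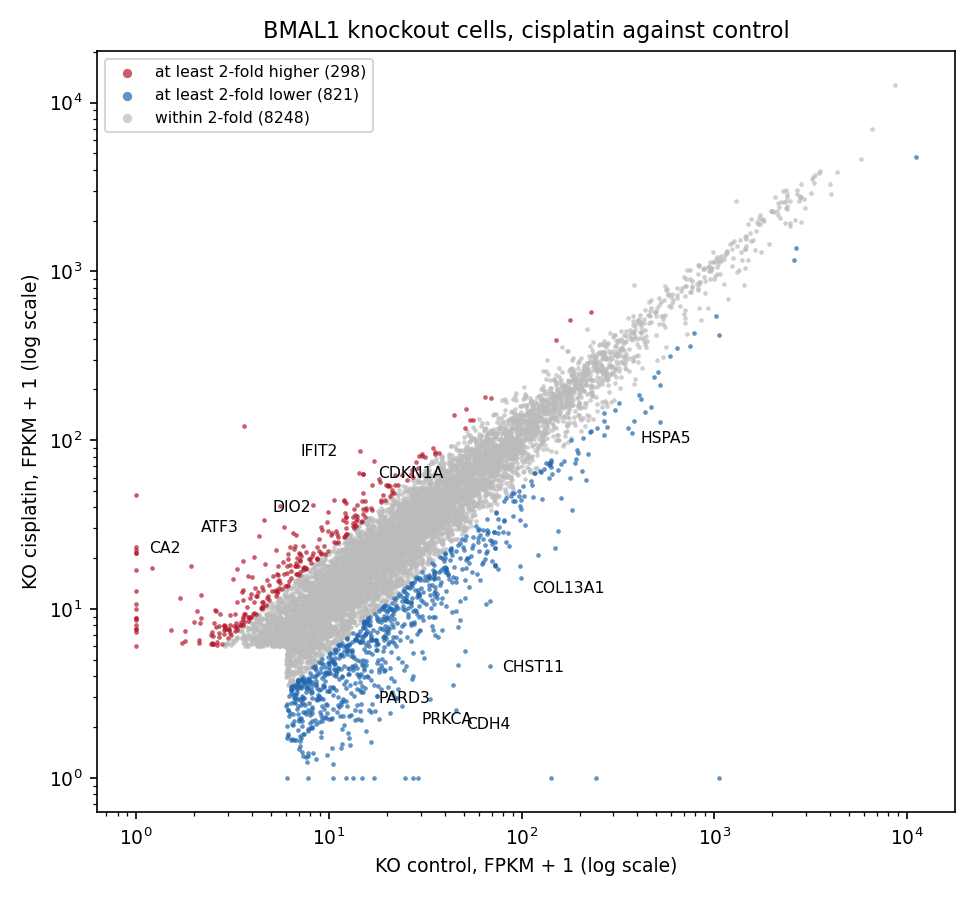
Level of each of 9367 genes in KO cisplatin cells (vertical, FPKM + 1, log scale) against KO control cells (horizontal, FPKM + 1, log scale), 1 value per group. The 298 genes called higher lie in red above the band, and the 821 called lower lie in blue below it, with CDH4 and CHST11 farthest from the band among the labelled genes.

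CA2, a carbonic anhydrase, had the largest response among the genes named by rule, at 17.0 FPKM in KO cisplatin cells against 0.922 FPKM in KO control cells (3.08, rough error 0.82). DIO2, which activates thyroid hormone, stood at 32.6 FPKM with cisplatin against 3.63 FPKM in control (2.71, rough error 1.09). ATF3, a stress-induced transcription factor, stood at 26.2 FPKM with cisplatin against 3.34 FPKM in control (2.50, rough error 0.72). CA2 and ATF3 were also called higher in WT cells, with responses of 1.90 and 1.52, whereas DIO2 had 2.50 FPKM in WT cisplatin cells and 1.54 FPKM in WT control cells, a response of 0.35 in a gene under the limit in WT cells. In the authors' deposited table DIO2 was higher in KO than in WT cells in both conditions, by a log2 ratio of 3.70 in cisplatin (q = 0.000167) and 1.24 in control (q = 0.0389).

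The other genes with the largest gains were SLC6A8, the creatine transporter, whose count is uncertain because it has near-identical copies (2.33, rough error 1.48), SIX2, a homeobox factor (2.28), TOB1, an antiproliferative protein (2.24), OSR2, a zinc finger factor of development (2.23), RRAD, a small GTPase (2.18), FAM171A2 (2.10), IFIT2, an interferon-induced gene (2.01), SAT1, which acetylates polyamines (2.00), and FAM132B, the hormone erythroferrone (1.97). SAT1 was the most abundant, at 74.8 FPKM in KO cisplatin cells against 16.1 FPKM in KO control cells. In WT cells the same genes had responses between 1.07 for TOB1 and 1.88 for SLC6A8, apart from IFIT2 at 0.45. SLC6A8, SIX2, TOB1, OSR2 and FAM171A2 stood at 1.16, 2.60, 4.88, 2.33 and 2.17 FPKM in KO control cells. Like CA2, DIO2 and ATF3, they passed the limit of 5 FPKM only through KO cisplatin cells, where they were high.

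CDH4, which encodes R-cadherin, had the smallest response of all genes named by rule. Its level was 1.51 FPKM in KO cisplatin cells against 44.7 FPKM in KO control cells (-4.34, rough error 0.22), and its gene spans 688 kb (GRCh38 20:61252426-61940617, plus strand, whole gene). CHST11, a chondroitin sulfotransferase of 307 kb, stood at 3.61 FPKM with cisplatin against 67.6 FPKM in control (-4.04, rough error 0.57). PARD3, a scaffold of cell polarity that spans 706 kb, stood at 2.57 FPKM with cisplatin against 43.1 FPKM in control (-3.77, rough error 0.39). All 3 lay below 5 FPKM with cisplatin and well above it in KO control cells.

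PRKCA, protein kinase C alpha, followed at 1.93 FPKM in KO cisplatin cells against 32.4 FPKM in KO control cells (-3.66). GPHN, the scaffold gephyrin (-3.48), RPTOR, the mTORC1 subunit raptor (-3.46), RSRC1, a splicing-related protein (-3.31), EPHB2, a receptor of ephrins (-3.31), ENOX1, a surface oxidase (-3.27), COL5A1, a fibrillar collagen (-3.25), TBC1D22A (-3.18) and SCFD2 (-3.18) completed the 12. The spans of these 12 genes ran from 203 kb for COL5A1 to 706 kb for PARD3. WT cells gave responses below -1 for all 12, from -3.55 for CDH4 to -1.42 for CHST11. In the authors' deposited table CHST11 was lower in KO than in WT cells in cisplatin (log2 ratio -1.69, q = 0.000167) and higher in control (1.16, q = 0.000213). RPTOR had the same 2 signs, at -1.37 in cisplatin (q = 0.000167) and 0.84 in control (q = 0.000213).

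**Figure D2:**
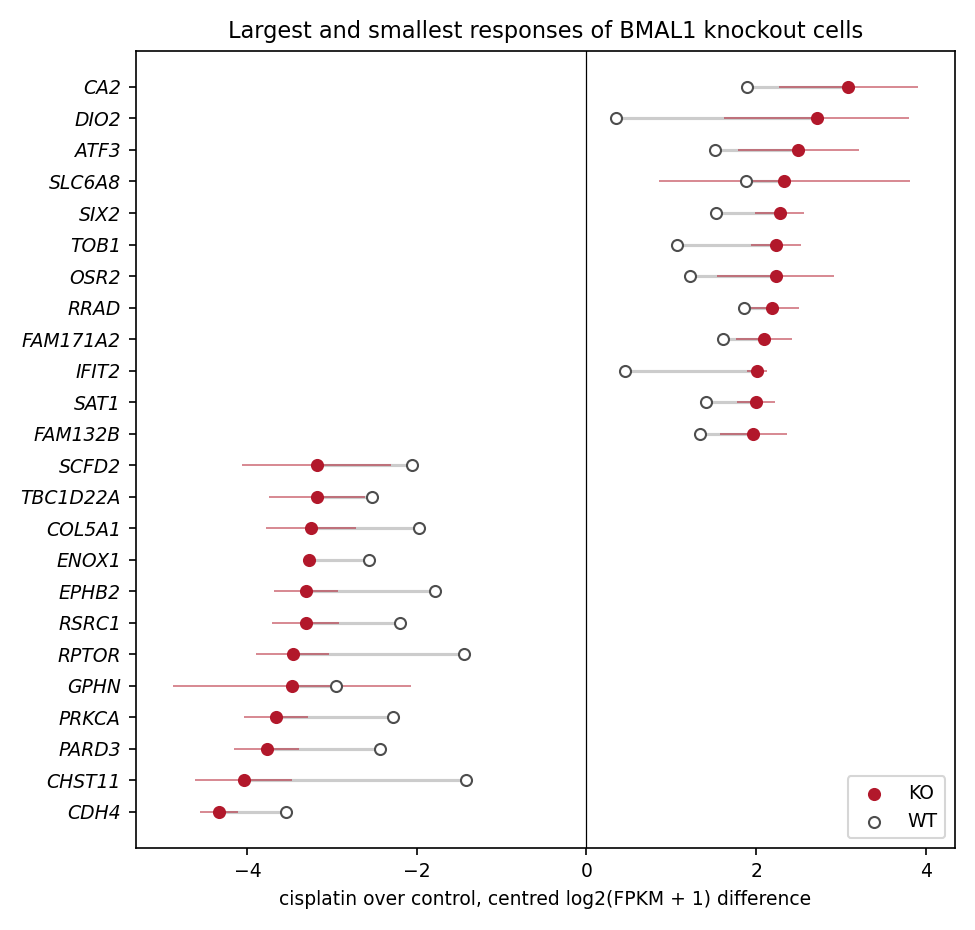
Centred log2 response to cisplatin of the 12 genes with the largest and the 12 with the smallest responses in KO cells. Filled points are KO cells with a bar of plus and minus 1 rough error where there is one, and open points are WT cells. KO points run from -4.34 for CDH4 to 3.08 for CA2, and DIO2 and IFIT2 stand out by WT points of 0.35 and 0.45.

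The size of the response followed the genomic span of the gene. The loci given in the deposited tables merge overlapping genes, so the span of each gene was taken from GENCODE 29, a choice made after the data were seen. Among 206 protein-coding genes of 300 kb and over, 162 (78.6%) were called lower and 2 higher, 197 had a response below 0, and the median response was -1.86 with quartiles of -2.36 and -1.17. Among 1251 genes of 100 to 300 kb, 410 (32.8%) were called lower and 4 higher, and the median was -0.71. The median was -0.10 in 2988 genes of 30 to 100 kb, 0.17 in 2696 genes of 10 to 30 kb, and 0.20 in 1766 genes under 10 kb, of which 28 (1.59%) were called lower and 107 higher. With the loci of the deposited tables the order was the same but the range smaller, at -0.47 for 300 kb and over, -0.30 for 100 to 300 kb, -0.01 for 30 to 100 kb, 0.16 for 10 to 30 kb and 0.21 under 10 kb.

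Read from the calls, 572 of 778 protein-coding genes called lower (73.5%) spanned 100 kb or more, against 6 of 250 called higher (2.4%) and 1457 of all 8907 (16.4%). The median span was 177 kb for those called lower, 11.4 kb for those called higher and 29.9 kb for all. Across the 8907 genes, which share the same libraries, Spearman's rho of the response was -0.51 with span, -0.34 with the number of exons, -0.22 with spliced length and -0.16 with the level in KO control cells. Within genes of 300 kb and over, the median response was -1.71, -1.95, -1.84 and -1.88 in 4 classes of spliced length, shortest to longest, cut at the quartiles of all genes. Over the same classes medians ran from 0.18 to 0.25 under 10 kb and from 0.14 to 0.20 in genes of 10 to 30 kb, ranges that overlap, while those of the 3 longer bands overlapped neither these nor each other. The level in KO control cells, which is itself a part of the response, moved the medians of the shorter bands by more than the gap between the 2 shortest bands. Under 10 kb the median was 0.48 for levels under 10 FPKM, 0.32 for 10 to 30 FPKM and 0.07 for over 30 FPKM, and in genes of 30 to 100 kb it was 0.09, -0.10 and -0.19 in the same classes. At 300 kb and over it was -1.72, -2.12 and -1.85, and in each of the 3 classes of level the medians lay in the order of the 5 bands, lowest in the longest. By exons, genes of 300 kb and over had a median of -0.83 with up to 5 exons, in 7 genes, and of -1.95 with over 20, in 82 genes. Medians by chromosome ran only from -0.12 on chromosomes 18 and 21 to 0.11 on chromosome 19, with -0.27 for the mitochondrial mRNAs.

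WT cells showed the same order at a smaller size for long genes. Their median response was -1.36 for 300 kb and over, -0.43 for 100 to 300 kb, -0.07 for 30 to 100 kb, 0.15 for 10 to 30 kb and 0.22 under 10 kb, and rho with span was -0.42 over 8519 genes. The median of the KO response minus the WT response was -0.39 in genes of 300 kb and over and -0.30 in those of 100 to 300 kb, and between -0.02 and 0.02 in the 3 bands of shorter genes. No spread between libraries is available, so the difference between genotypes was not tested. The other drugs were read against the same KO control cells, each centred on its own median. They gave medians of -0.43 and -0.50 in the 2 bands of longest genes for doxorubicin and 0.05 and 0.02 for tunicamycin.

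**Figure D3:**
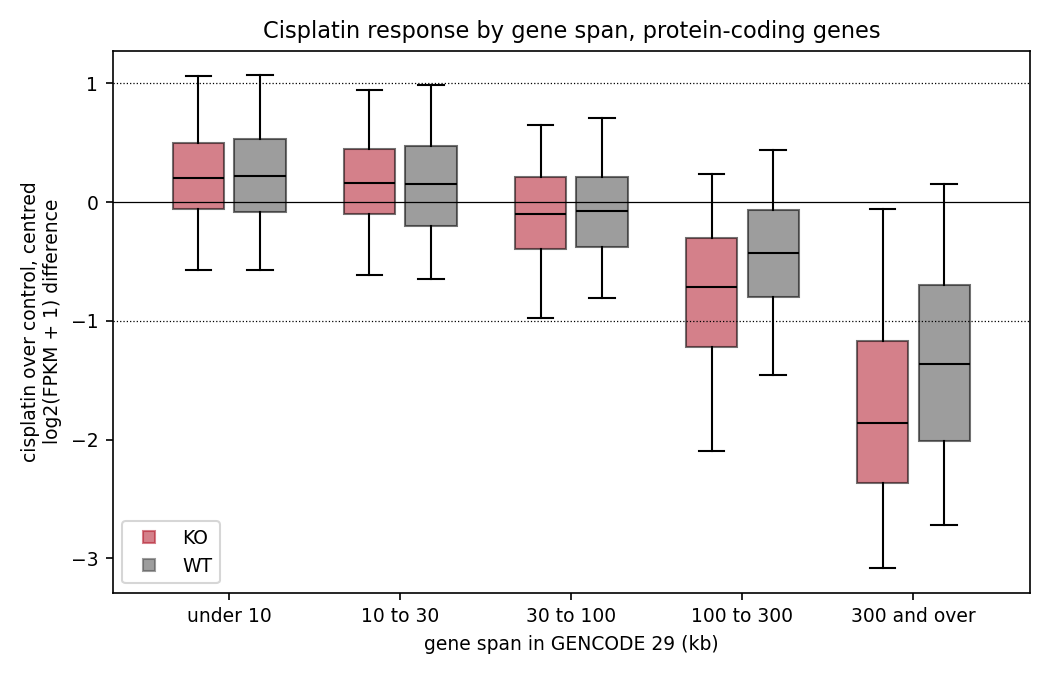
Centred log2 response to cisplatin of protein-coding genes by gene span (kb, GENCODE 29), with KO cells in red on the left and WT cells in grey on the right of each pair. Boxes give the quartiles and the median, whiskers the 5th and 95th percentiles, and dotted lines 2-fold. The KO median was 0.20 under 10 kb and -1.86 at 300 kb and over, and the WT median 0.22 and -1.36 in the same bands.

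Some genes went against their span, and those given here were chosen after their values were seen. The 6 genes of 100 kb or more called higher were ADAMTS6, a secreted protease of 333 kb (1.92), PCDH9, a protocadherin of 928 kb (1.72), DIO2, C17orf51 (1.37), SGK1, a kinase induced by serum and steroids (1.29), and MPP6, a membrane scaffold (1.28, rough error 1.39). ADAMTS6 stood at 7.34 FPKM in KO cisplatin cells against 0.989 FPKM in KO control cells (rough error 0.88), with a WT response of 1.85. PCDH9 stood at 5.28 FPKM with cisplatin against 0.720 FPKM in control and has no rough error. Like DIO2 and C17orf51 (3.89 FPKM in control), both passed the limit of 5 FPKM only through KO cisplatin cells, where they were high. A gene span covers all annotated start sites, and which of them was used is not known from these files.

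Among short genes called lower, H1F0, a linker histone of 2.34 kb, stood at 44.4 FPKM in KO cisplatin cells against 159.9 FPKM in KO control cells (-1.97, WT -1.95). MAT2A, which makes S-adenosylmethionine, stood at 24.0 FPKM with cisplatin against 82.1 FPKM in control (-1.88, WT -1.36). HSPA5, the chaperone BiP, stood at 117 FPKM with cisplatin against 358 FPKM in control (-1.76, WT -1.27), and PLAU, the urokinase that activates plasminogen, at 146 FPKM with cisplatin against 438 FPKM in control (-1.73, WT -1.23). All 4 lay under 10 kb and were called lower in both genotypes. The cytoplasmic actin gene ACTB also stood lower, at 1173 FPKM with cisplatin against 2607 FPKM in control (-1.30, WT -0.73), but actin genes have many near-identical copies and their counts are uncertain. GAPDH, a glycolytic enzyme, was at 6965 FPKM with cisplatin against 6591 FPKM in control (-0.07).

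Some genes that respond to DNA damage or start apoptosis were higher. CDKN1A, the inhibitor p21 that stops the cell cycle, stood at 62.4 FPKM in KO cisplatin cells against 14.1 FPKM in KO control cells (1.92, WT 1.59). GADD45A, a stress sensor, stood at 43.1 FPKM with cisplatin against 10.9 FPKM in control (1.74, WT 1.45), and PHLDA3, which restrains AKT, at 25.8 FPKM with cisplatin against 10.1 FPKM in control (1.12, WT 1.82). PMAIP1, the apoptosis activator NOXA, stood at 38.4 FPKM with cisplatin against 15.6 FPKM in control (1.10), with a WT response of 0.19.

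Counts of calls in gene lists stand against 3.18% called higher and 8.76% called lower over all genes, around a median of 0. Some members called higher passed the limit of 5 FPKM only through KO cisplatin cells, among them ATF3, BCL2L11, HSPB8, ADAMTS6, SNAI1, CD24 and PER1. Some called lower, such as CDK6 and CENPE, passed it only through KO control cells. In the BCL2 family 2 of 12 were called higher and none lower, with a median of 0.09. Beside PMAIP1 this was BCL2L11, the apoptosis activator BIM, at 5.82 FPKM with cisplatin against 1.68 FPKM in control (1.20, rough error 0.91, WT 0.27). BCL2L11 was among the 12 only through KO cisplatin cells, where it was high. Of 16 caspases and inhibitors of apoptosis, 1 was called lower, BIRC3 (-1.16), and none higher. Of 8 death receptors and ligands, TNFRSF10D, a decoy receptor of TRAIL, was called higher at 20.04 FPKM with cisplatin against 5.17 FPKM in control (1.62), and TNFRSF21, death receptor 6, lower at 58.8 FPKM with cisplatin against 139 FPKM in control (-1.37).

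Cell cycle lists gave calls in both directions. Of 21 genes of the G1 phase, 4 were called higher and 1 lower, with a median of 0.27 (WT -0.04). CCNE1 and CCNE2, the E cyclins that start replication, stood at 42.8 FPKM with cisplatin against 14.5 FPKM in control (1.36) and 55.6 FPKM with cisplatin against 17.4 FPKM in control (1.47), beside the inhibitors CDKN1A and CDKN1C (1.06). CDK6, a G1 kinase of 232 kb, was lower at 4.69 FPKM with cisplatin against 11.4 FPKM in control (-1.27). Of 32 genes of G2 and mitosis, 28 lay below 0 with a median of -0.43 (WT -0.58), but only PLK1, a mitotic kinase, at 68.7 FPKM with cisplatin against 141 FPKM in control (-1.17), and CENPE, a kinetochore motor, at 4.48 FPKM with cisplatin against 9.15 FPKM in control (-1.04), were called lower. CDK1, the mitotic kinase itself, had a response of 0.48 in KO and -0.50 in WT cells.

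Of 38 genes of DNA replication, 2 were called higher and 2 lower, with a median of 0.10. RRM2, which makes deoxynucleotides, stood at 570.3 FPKM in KO cisplatin cells against 229.7 FPKM in KO control cells (1.16), and ORC6, of the origin complex, at 34.6 FPKM with cisplatin against 13.1 FPKM in control (1.19). The genes called lower were PRIM2 (-1.45) and POLA1 (-1.32), of the primase complex, which span 332 kb and 303 kb. Among 27 genes of excision repair, the Fanconi pathway and translesion synthesis, which act on platinum lesions, FANCC (-1.43), of 328 kb, was called lower and none higher, with a median of -0.05. MAD2L2, a subunit of translesion polymerase zeta, had the largest response of that list at 0.86. Of 29 genes of double-strand break repair, EXO1, an exonuclease (78.2 FPKM with cisplatin against 30.7 FPKM in control, 1.18), and RNF8, a ubiquitin ligase at breaks (1.16), were called higher, and XRCC4, of end joining, lower at 3.82 FPKM with cisplatin against 16.7 FPKM in control (-2.02). The calls in these 3 lists were few and near the shares over all genes (3.18% higher, 8.76% lower), so they are values of single genes and no result about the lists. Among genes that move platinum and other drugs, 2 of 12 were called lower and none higher. They were the exporters ABCC1, at 6.12 FPKM with cisplatin against 27.8 FPKM in control (-2.16), and ABCC4, at 2.94 FPKM against 14.9 FPKM (-2.16). Their WT responses were -0.75 and -1.50. ABCC1, ABCC4 and XRCC4 span 193 kb, 282 kb and 276 kb. Among all protein-coding genes of 100 to 300 kb, 32.8% were called lower.

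Stress genes went in both directions. Of 29 immediate early and MAPK feedback genes, 4 were called higher and 4 lower, with a median of -0.12 (WT 0.06). ATF3, JUNB at 61.0 FPKM with cisplatin against 21.1 FPKM in control (1.34) and DUSP1, a phosphatase of MAP kinases, at 179 FPKM with cisplatin against 63.4 FPKM in control (1.33) were higher, and so was FOS (1.02). SPRY4, an inhibitor of receptor signalling, stood lower at 24.8 FPKM with cisplatin against 67.9 FPKM in control (-1.56), as did FOSL1, an AP-1 subunit, at 107 FPKM with cisplatin against 266 FPKM in control (-1.46). Of 19 targets of ATF4, the factor of the integrated stress response, 4 were called higher and 3 lower. PPP1R15A (GADD34), which restarts translation, stood at 152 FPKM with cisplatin against 50.3 FPKM in control (1.43), and DDIT3 (CHOP), a stress factor, at 37.8 FPKM with cisplatin against 14.5 FPKM in control (1.18). The amino acid transporter SLC7A5 was lower at 210.2 FPKM with cisplatin against 520.0 FPKM in control (-1.45), and DDIT4, an inhibitor of mTORC1, at 33.1 FPKM with cisplatin against 74.9 FPKM in control (-1.30).

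In the unfolded protein response under ATF6 and XBP1, which refills the endoplasmic reticulum with chaperones, every call was lower: 6 of 24 were called lower, none higher, and 19 lay below 0, with a median of -0.50 (WT -0.49). The median span of this list was 17.0 kb, but some genes called lower were longer. ATF6 itself (-1.54, WT -1.11) spans 198 kb and SEL1L 62.3 kb. Beside HSPA5, HYOU1, a chaperone of the same organelle, stood at 74.4 FPKM with cisplatin against 165 FPKM in control (-1.29), and SEL1L, of the degradation complex, at 8.72 FPKM with cisplatin against 20.7 FPKM in control (-1.30). With tunicamycin, set against the same KO control cells, the responses were 4.37 for HSPA5, 2.81 for HYOU1 and 3.12 for SEL1L. Of 20 heat shock chaperones, HSPB8 was called higher (1.90) and HSPA8 lower (-1.10).

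Interferon-stimulated genes held 4 called higher of 21 and none lower, with a median of 0.35 (WT 0.41). IFIT2, of the family that binds foreign RNA, stood at 62.8 FPKM in KO cisplatin cells against 13.3 FPKM in KO control cells, and at 50.2 FPKM in WT cisplatin cells against 33.5 FPKM in WT control cells. IRF7 (31.6 FPKM with cisplatin against 8.77 FPKM in control, 1.59) and IRF9 (24.1 FPKM with cisplatin against 10.1 FPKM in control, 1.03) are transcription factors of the pathway, and ISG15, a ubiquitin-like protein, stood at 389 FPKM with cisplatin against 149 FPKM in control (1.23). The neighbours of IFIT2, named after their values were seen, had responses of 0.96 (IFIT3) and 0.80 (IFIT1) in KO cells and 0.09 and -0.62 in WT cells. In the authors' deposited table IFIT1 and IFIT2 were higher in KO than in WT cells in cisplatin (log2 ratios 0.19 and 0.32, both q = 0.000167) and lower in control (-1.31 and -1.34, both q = 0.000213).

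Over all genes 821 of 1119 calls were lower, and among collagen chains and secreted matrix proteins every call was. Of 11 collagen chains, 9 were called lower and none higher, with a median of -1.60 (WT -0.93) and a median span of 122 kb. COL13A1, a membrane collagen, stood at 14.2 FPKM with cisplatin against 99.0 FPKM in control (-2.86), and the basement membrane chains COL4A2 and COL4A1 at 28.1 FPKM with cisplatin against 153 FPKM in control (-2.55) and 10.2 FPKM with cisplatin against 47.1 FPKM in control (-2.24). COL6A1, COL6A2 and COL7A1, which span 23.3 kb, 34.8 kb and 31.2 kb, were called lower as well (-1.39, -1.10 and -1.60), with WT responses of 0.27, 0.36 and -0.73. COL1A1, of 18.3 kb, was the chain above 0, at 9.70 FPKM with cisplatin against 5.74 FPKM in control (0.52). Of 12 other matrix proteins, 5 were called lower and none higher (median -0.89), led by TNC, tenascin C, at 2.87 FPKM with cisplatin against 26.0 FPKM in control (-2.95), with FBN1 (-1.78), LAMB1 (-1.35) and LAMC1 (-1.21). Of 14 matrix proteases and their inhibitors, 5 were called lower and 2 higher, with a median of -0.63 (WT -0.28). The ratio of lower to higher calls was close to that over all genes, but both shares were larger than 8.76% and 3.18%. The higher ones were ADAMTS1 (1.43) and ADAMTS6, which passed the limit of 5 FPKM only through KO cisplatin cells. The lower ones included the sheddase ADAM10 at 18.6 FPKM with cisplatin against 50.3 FPKM in control (-1.53).

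**Figure D4:**
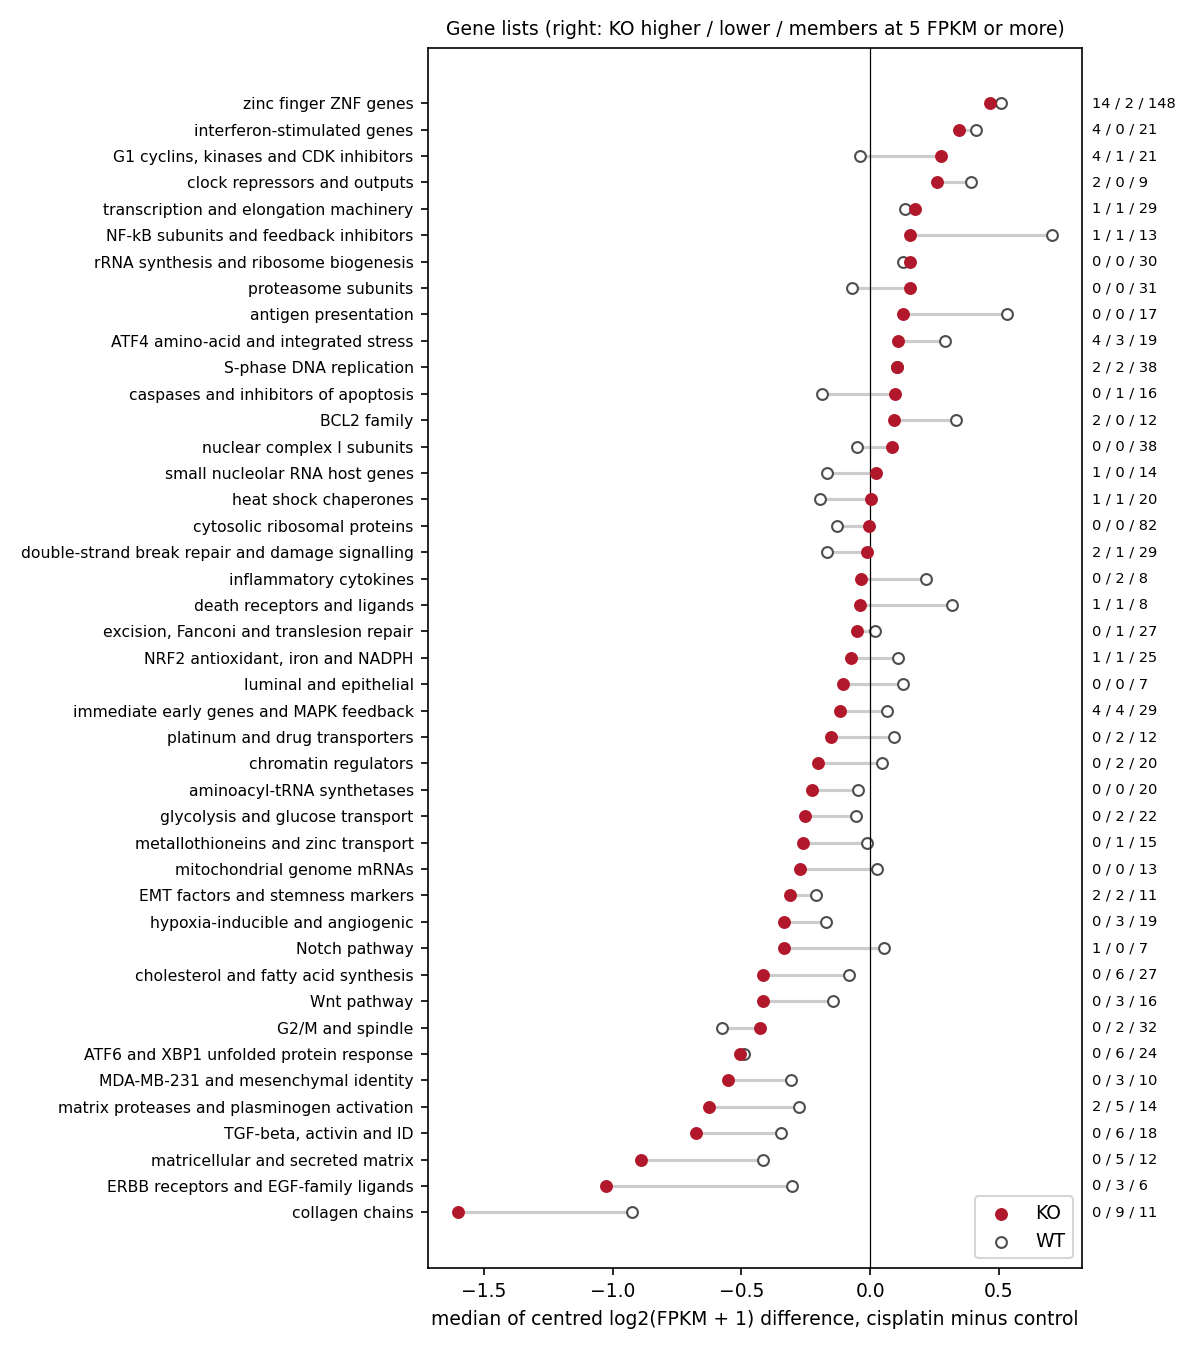
Median centred log2 response to cisplatin of gene lists with 6 or more measured members, KO cells as filled points and WT cells as open points. Numbers at the right give KO genes called higher, called lower and measured. Collagen chains lie lowest at -1.60 in KO cells, and zinc finger genes highest at 0.46.

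In the ERBB, TGF-beta and Wnt lists every call was lower, but most members of the TGF-beta and Wnt lists were not called. Of 6 measured ERBB receptors and ligands, 3 were called lower: NRG1, a ligand of ERBB3 that spans 1129 kb, at 13.5 FPKM with cisplatin against 44.6 FPKM in control (-1.80), the receptor EGFR at 13.5 FPKM with cisplatin against 37.4 FPKM in control (-1.55) and its ligand TGFA at 10.9 FPKM with cisplatin against 28.4 FPKM in control (-1.45). Their WT responses were -0.83, -0.48 and -0.30, and the median of the list was -1.02 (WT -0.30). ERBB2, of 42.5 kb, had a response of 0.10. In the TGF-beta list 6 of 18 were called lower and none higher (median -0.67), among them the ligand TGFB2 (-1.40), the receptors TGFBR2 (-1.31) and TGFBR3 (-1.75) and the inhibitor SMAD6 (-1.46). In the Wnt list 3 of 16 were called lower and none higher (median -0.42): the co-receptor LRP5 at 2.36 FPKM with cisplatin against 21.7 FPKM in control (-2.90), the ligand WNT7B at 3.34 FPKM with cisplatin against 23.6 FPKM in control (-2.65) and the factor TCF7L2 (-1.95). The measured members of the TGF-beta and Wnt lists had median spans of 54.5 kb and 61.0 kb, against 29.9 kb for all protein-coding genes. TGFBR3, TCF7L2 and LRP5 span 226 kb, 217 kb and 137 kb, while TGFB2, TGFBR2, SMAD6 and WNT7B span less than 100 kb. Whether these lists differ from other genes of like span was not tested. In the Notch list of 7, 1 was called higher and none lower.

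Of 11 measured factors of the mesenchymal state and stemness markers, 2 were called higher and 2 lower, with a median of -0.31 (WT -0.21). SNAI1 stood at 17.5 FPKM with cisplatin against 3.64 FPKM in control (1.85, WT 1.79), and CD24 at 5.20 FPKM against 1.51 FPKM (1.16, rough error 0.78, WT -0.24). Both of these genes called higher passed the limit of 5 FPKM only through KO cisplatin cells, where they were high. ZEB1, of 211 kb, stood at 11.2 FPKM with cisplatin against 24.3 FPKM in control (-1.20, WT -0.16). The integrin ITGA6 was lower, at 17.3 FPKM with cisplatin against 72.0 FPKM in control (-2.14). Of the 10 MDA-MB-231 and mesenchymal markers, 9 lay below 0, with a median of -0.55 (WT -0.31), 3 were called lower and none higher. Among the 3 was the receptor kinase AXL, at 237 FPKM with cisplatin against 487 FPKM in control (-1.18). Lipid synthesis had 6 of 27 genes called lower and none higher, with a median of -0.41 (WT -0.08). They included ACACA, which makes malonyl-CoA and spans 322 kb (5.20 FPKM with cisplatin against 19.2 FPKM in control, -1.85) and LSS, lanosterol synthase (-1.45). The glucose transporter SLC2A1, at 174 FPKM with cisplatin against 415 FPKM in control (-1.39), and PFKP (-1.20) were the 2 of 22 glycolysis genes called lower, and none was called higher.

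The transcription machinery itself had 1 of 29 genes called higher and 1 lower. POLR2A, the largest subunit of RNA polymerase II, stood at 139 FPKM in KO cisplatin cells against 43.4 FPKM in KO control cells (1.51, WT 1.79), and MNAT1, of the kinase module of TFIIH, with a span of 235 kb, at 16.8 FPKM with cisplatin against 43.9 FPKM in control (-1.48, WT -1.85). Of 148 zinc finger ZNF genes, 14 were called higher and 2 lower, and 127 lay above 0, with a median of 0.46 (WT 0.51). The median span of these genes was 22.8 kb. For comparison, protein-coding genes of 10 to 30 kb had a median of 0.37 at levels under 10 FPKM in KO control cells. At levels of 10 to 30 FPKM that median was 0.23. Whether the ZNF genes differ from other genes of like span and level was not tested. No member was called among 82 ribosomal proteins (median -0.00), 31 proteasome subunits (0.15), 38 nuclear subunits of complex I (0.08), 20 aminoacyl-tRNA synthetases (-0.23), 30 genes of ribosome biogenesis (0.15) and 13 mitochondrial mRNAs (-0.27), medians that would be 0.15 higher with no centring. Of 9 measured clock repressors and outputs, 2 were called higher and none lower, and of 4 clock activators and partners 1 was called lower and none higher. The E-box target NR1D1 (REV-ERB alpha) stood at 12.7 FPKM with cisplatin against 5.04 FPKM in control (1.03, WT 0.81). The repressor PER1 stood at 12.7 FPKM with cisplatin against 4.95 FPKM in control (1.05, rough error 0.94, WT 0.94). Clock genes that were not called included CLOCK (-0.97) and the repressors CRY1 (-0.61) and CRY2 (0.65). NPAS2, a partner that can replace CLOCK, was lower at 13.9 FPKM with cisplatin against 59.5 FPKM in control (-2.17), beside 14.4 FPKM in WT cisplatin cells and 20.7 FPKM in WT control cells.

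The promoters of the genes were searched for the palindrome TGACGTCA, the full site of CREB and ATF factors, the family of ATF3, along with 4 other motifs. The windows, from RefSeq on GRCh38.p14, run from 250 bases before to 50 after the start of the gene, and 7390 of the measured protein-coding genes had one. The site was in 14 of 195 promoters of genes called higher (7.18%), in 19 of 644 of genes called lower (2.95%), in 3.71% of the 7390 and in 1.98% of all 27305 windows of the table. A match is a description of the letters and does not show binding. The E-box CACGTG, the core site of BMAL1 with CLOCK, was in 8.72% of promoters of genes called higher, 10.4% of those called lower and 10.9% of the 7390. These motifs read the same on either strand, and CACGTG ends in the TG with which TGACGTCA begins, so neighbouring matches can overlap. The others, searched on both strands, were CCAAT, the box of NF-Y (40.5% of promoters of genes called higher, 33.7% of those called lower, 37.7% of the 7390), TTTGAA, the CHR element of cell cycle genes (9.23%, 9.78% and 9.17% in the same sets), and TTTCGCGC, a site of E2F factors (2.05%, 0.776% and 1.04%). Over all windows of the table the shares were 7.43% for CACGTG, 35.7% for CCAAT, 15.4% for TTTGAA and 0.546% for TTTCGCGC.

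The 4 genes named here by the rules above whose promoter held TGACGTCA are shown with that site in capitals, each read 5′ to 3′ on the strand of its gene from 150 bases before the start to 20 bases from it. They are shown because 3 of them were called higher and 1, CENPE, lower, so the same letters stood before genes of both directions. The windows are EXO1 at chr1:241848054-241848223 (plus strand), PPP1R15A at chr19:48872271-48872440 (plus strand), ADAMTS6 at chr5:65481901-65482070 (minus strand) and CENPE at chr4:103198324-103198493 (minus strand).
EXO1: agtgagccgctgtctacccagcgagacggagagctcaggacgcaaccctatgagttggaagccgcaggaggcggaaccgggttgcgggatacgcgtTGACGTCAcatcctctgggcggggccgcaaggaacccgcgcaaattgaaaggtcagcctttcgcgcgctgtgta
PPP1R15A: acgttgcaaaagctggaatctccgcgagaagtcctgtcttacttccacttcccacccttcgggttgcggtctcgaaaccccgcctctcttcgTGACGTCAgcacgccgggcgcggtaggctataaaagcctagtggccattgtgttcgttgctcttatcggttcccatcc
ADAMTS6: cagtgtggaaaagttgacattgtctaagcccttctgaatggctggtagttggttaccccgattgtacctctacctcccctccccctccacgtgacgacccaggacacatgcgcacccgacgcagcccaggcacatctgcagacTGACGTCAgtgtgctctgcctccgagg
CENPE: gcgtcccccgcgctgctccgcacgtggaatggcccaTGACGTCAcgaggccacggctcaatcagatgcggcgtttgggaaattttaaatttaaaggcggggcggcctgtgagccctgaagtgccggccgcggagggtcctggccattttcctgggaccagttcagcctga
The site begins 54 bases before the start in EXO1, 58 in PPP1R15A, 7 in ADAMTS6 and 114 in CENPE.

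Set beside WT cells gene by gene, the responses ran largely in parallel. Over 8891 genes measured in both genotypes, Pearson's r of KO and WT responses was 0.67 and Spearman's rho 0.66, across genes that share 1 normalization per table but no library. WT cells had 411 of 9351 genes called higher (4.4%) and 506 called lower (5.41%). With no centring these were 567 and 401, so the larger side in WT cells depends on the centre. Of the genes measured in both, 138 were called higher in both, which is 53.3% of the KO and 37.7% of the WT calls, and 309 were called lower in both, 43.0% of the KO and 71.7% of the WT calls. No gene was called higher in KO and lower in WT cells, and the 2 called the other way were short RNAs, TUG1_1 and a Y_RNA, both listed at 0 in WT control cells.

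The WT control group stood apart at some genes, which limits this comparison. The KO response uses no WT level, but its rough error draws on WT control cells, and both control groups share 1 normalization. At 33 genes it lay under 0.25 times the lowest of the other 7 groups, against 0 such genes in KO control cells and 1 in KO cisplatin cells. At 21 genes it lay over 4 times the highest, against 6 and 10. Many of these have near-identical copies, such as TUBA1A, an alpha-tubulin, at 628 FPKM in KO cisplatin cells and 513 FPKM in KO control cells (0.14), but 630.0 FPKM in WT cisplatin cells and 64.1 FPKM in WT control cells (3.16). KRT6A, TUBB2B, POTEE, POTEJ and MT1H, the other genes with the smallest KO minus WT responses, followed that pattern, and KRT6A was listed at 0 in WT control cells. IMMP1L and RAB28, at the other end, had 20.04 FPKM and 6.87 FPKM in KO control cells against 121 FPKM and 37.1 FPKM in WT control cells. Without those genes WT cells had 381 genes called higher and 485 lower, and 138 and 308 were shared with KO cells.

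TXNIP, an inhibitor of thioredoxin that restrains glucose uptake, was not among those genes. It stood at 43.4 FPKM in KO cisplatin cells against 9.59 FPKM in KO control cells (1.92, rough error 0.16), and at 88.0 FPKM in WT cisplatin cells against 76.5 FPKM in WT control cells (0.08). Its KO level with cisplatin thus stayed below both WT levels, and the authors' deposited table gives a log2 ratio of KO over WT of -1.02 in cisplatin (q = 0.000167) and -2.996 in control (q = 0.000213). PYURF, at 27.7 FPKM with cisplatin against 15.4 FPKM in control (0.66, WT -0.99), and the readthrough locus MINOS1-NBL1, at 10.7 FPKM with cisplatin against 8.46 FPKM in control (0.16, WT -2.42), also had large KO minus WT responses. That readthrough locus overlaps other genes and is uncertain.

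**Figure D5:**
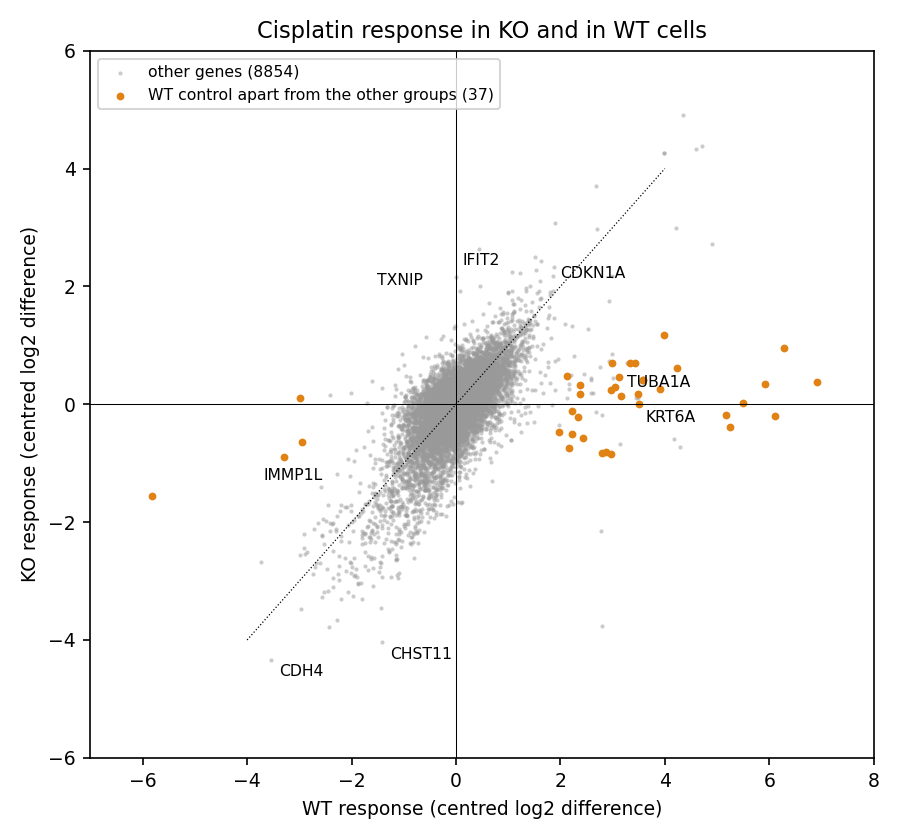
Centred log2 response to cisplatin in KO cells (vertical) against WT cells (horizontal) for 8891 genes, with equal responses on the dotted line. Orange marks 37 genes at which the WT control group lay under 0.25 times the lowest or over 4 times the highest of the other 7 groups. These spread along the WT axis, while IFIT2 and TXNIP lie above the line near a WT response of 0.

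For scale, the other drugs were read against the same KO control cells, so their values are not independent of those for cisplatin. Doxorubicin had 2335 of 9008 genes called higher (25.9%) and 2670 lower (29.6%), and tunicamycin 384 of 9150 higher (4.2%) and 142 lower (1.55%). Each response was centred on its own median, and the doxorubicin calls and values rest on that centre. PGR, listed at 0 in these KO groups, had a centred response of 0.75 with doxorubicin and 0.07 with tunicamycin. CDH4, the gene lost most with cisplatin, had a response of 0.20 with doxorubicin and 0.42 with tunicamycin, and CHST11 of -0.22 and 0.30. CA2 had 2.27 and -0.41, ATF3 2.96 and 1.12, IFIT2 -1.24 and 0.60, and CDKN1A 0.87 and 0.66. In uncentred levels, CDH4 stood at 30.1 FPKM with doxorubicin against 44.7 FPKM in KO control cells. CHST11 stood at 34.0 FPKM against 67.6 FPKM and CDKN1A at 15.4 FPKM against 14.1 FPKM in the same groups.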

How the data were processed

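RNA-seq libraries of 16 samples in 8 groups of 2 were paired-end reads of 100 bases, per the labels' protocols. FastQC 0.11.5, Trimmomatic 0.35, STAR 2.5.3, Cufflinks, Cuffdiff and hg38 are named in the submitters' processing notes; what each tool did, which annotation was used and whether counting was stranded is not given in the sources used here, which leaves genes that overlap or lie antisense uncertain. For each of 4 treatments the authors deposited a table of 60658 genes, and per the file headers it holds 1 FPKM per genotype made from both replicates. The log2 ratio of KO over WT, the test statistic (a score) and the p-value and q-value in these tables were deposited by the authors. WT and KO columns were assigned from the order of groups in the tables' names and from the group codes inside. Counts per library are not given, so depth is unknown and no interval, standard deviation or test across replicates could be had; where replicates share a culture the spread would be technical.

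The response was computed across the control and cisplatin tables, which were normalized separately, as log2(FPKM + 1), for genes of 5 FPKM or more in either group, centred on the median. The rough error is the root of the summed squares, over both tables, of the deposited log2 ratio divided by the deposited statistic. Cisplatin loci listed without a value by Cuffdiff (22) are not in the 9367 genes. Gene spans, exons and types came from GENCODE 29, which matched 9345 of the 9367 genes, and promoters from RefSeq on GRCh38.p14.

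Named genes were the 12 largest and 12 smallest responses and the 6 largest and 6 smallest differences between genotypes. These had a span of at least 500 bases, taken from GENCODE because deposited loci merge genes. Also named were up to 4 members past 2-fold in each of 48 lists, or, with fewer than 2 past it, the 2 most abundant. The clock genes were named too, and list members and clock genes had no limit on span. Other names were chosen after their values were seen. Results that need withheld genes, and 1 of the lists, are not reported here. Members and lists were chosen with earlier results of these data known. The call procedure was run on simulated data, with planted changes larger than the limit for a call and noise smaller than the median rough error. That run checks the computation and does not show how reliable the calls are. Python 3.11.15, pandas 2.3.3 and numpy 2.4.6 were used.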

Additional observations from a re-analysis of the deposited data

How the results depend on the processing

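No paired analysis was possible because the tables give 1 value per group, and leaving out a replicate was not run for the same reason. With a pseudocount of 5 FPKM in place of 1, KO cells had 119 genes called higher and 512 lower, WT cells 170 and 269, and 45 and 162 were shared. With a limit of 1 FPKM, KO cells had 451 called higher, and WT cells 651 higher and 774 lower. With no limit, KO cells had 614 called higher and WT cells 769, with 259 shared. With no centring 476 genes were called higher in KO cells and 227 in both genotypes, and with levels rescaled to an equal sum, without mitochondrial genes, 212 were higher in both. Asking for more than 2 rough errors left 272 genes higher in WT cells. The median KO response of genes of 300 kb and over was -0.47 with deposited loci and -1.85 with the span of each gene (all gene types), since merged loci place short genes in the longest band. The other counts stayed within 1.5 times. Of 188 list medians under 4 other settings, 186 stayed on their side of 2-fold and 171 kept their sign. Of the 17 that changed sign, 9 did so with no centring, such as immediate early genes (-0.12, against 0.03 with no centring) and excision repair (-0.05, against 0.09), and 6 with a limit of 1 FPKM, such as Notch (-0.34, against 0.09) and inflammatory cytokines (-0.04, against 0.22). For the ERBB list the median was -0.60 with a limit of 1 FPKM and -0.88 with no centring. No named gene changed sign past 2-fold under the 4 settings tried. Without counts, the depth behind low genes is not known.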
